A study of Homo sapiens with 6 samples.

Results

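Matrix metalloproteinases (MMPs) and their tissue inhibitors (TIMPs) were followed in Capan1, a human pancreatic cancer line labelled as well differentiated, through all array probes annotated to 10 genes: MMP1, MMP7, MMP9, MMP10, MMP11, MMP14, MMP15, MMP28, TIMP1 and TIMP2. These genes had 14 of the 47228 probes of the Illumina array, and they are 10 of 20046 named genes. Per the protocol, which is the same for all samples, Capan1 cells lay on a gel of type I collagen and Matrigel, a basement membrane extract, that was lifted onto a grid after 24 hours, fed from below and harvested on day 10. In 3 samples PS1, a pancreatic stellate cell line, was embedded in the gel, and in 3 samples the titles give Capan1 only. A further label names PS1 as the exposure on all 6 samples, so each comparison rests on the titles. RNA came from the cancer cell layer, which was taken from frozen sections by laser microdissection, with 1 array per sample. Each cell type is a single line, so neither speaks for other donors. The question is what the presence of PS1 changes in RNA of the cancer layer.

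MMPs are zinc-dependent proteases that are made as inactive proenzymes and, once activated, cut collagens, laminins and other matrix proteins as well as growth factors and receptors at the cell surface. MMP1 is the interstitial collagenase, MMP10 is stromelysin-2, MMP7 is matrilysin, a small protease made by glandular epithelia, MMP9 is gelatinase B, and MMP14 and MMP15 are anchored in the cell membrane. TIMPs are secreted proteins that bind the active site of MMPs and block it, and TIMP2 also takes part in the activation of proMMP2 by MMP14. In pancreatic tumours MMPs are made both by the cancer cells and by the stroma.

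MMP1 and MMP10, which are neighbours in the MMP gene cluster of chromosome 11, fell when stellate cells were in the gel. MMP7, which lies in the same cluster, did not pass the test. Genes of this cluster are known for an AP-1 site close to the start, the element bound by FOS and JUN proteins. The promoters of MMP10 and MMP7 are therefore shown, as the 250 bases before the start of each gene on its own strand, from RefSeq on GRCh38.p14. Capitals mark the AP-1-like motif TGANTCA, a loose pattern in which N is any base. That of MMP10 is chr11:102780629-102780878 and that of MMP7 chr11:102530748-102530997, both on the minus strand.
MMP10: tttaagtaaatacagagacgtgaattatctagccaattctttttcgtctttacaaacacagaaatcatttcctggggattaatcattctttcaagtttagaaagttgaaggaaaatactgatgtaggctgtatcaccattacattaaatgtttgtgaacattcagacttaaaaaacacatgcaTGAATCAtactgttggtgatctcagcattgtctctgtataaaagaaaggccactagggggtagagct
MMP7: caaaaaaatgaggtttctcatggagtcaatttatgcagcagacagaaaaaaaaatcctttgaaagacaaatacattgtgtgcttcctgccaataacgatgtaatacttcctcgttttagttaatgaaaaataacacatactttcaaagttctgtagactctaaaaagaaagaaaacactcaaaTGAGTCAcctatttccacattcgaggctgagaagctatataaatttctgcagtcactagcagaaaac

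The motif begins 67 bases before the start in both promoters, as TGAATCA in MMP10 and TGAGTCA in MMP7, which differ at the middle base. A TATAAA motif, searched on the gene's strand alone, begins 31 bases before the start of MMP10 and 30 bases before that of MMP7. TGANTCA, which reads the same on both strands, was present in 6.57% of 35116 promoters of this length, TATAAA in 6.80% and both in 0.698%. Promoters of 6 of the 10 genes were matched, and those of MMP11, MMP14, MMP15 and TIMP1 held no TGANTCA in this window. The TIMP1 window held TGAGTAA, which differs from the TGAGTCA of MMP7 only in the next-to-last base and is not matched by the pattern. A match of letters does not show that a factor binds there, and the lack of a match does not show that an AP-1 site is absent. MMP10, which fell, and MMP7, which did not pass, each held a match to both motifs. No promoter was matched for MMP1, the other gene that fell. Whether these motifs bear on the changes was not tested.

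Of the 10 genes 8 had a probe detected above the array's negative controls (detection p under 0.05) on at least 3 arrays, and these were tested. The limma fit covered 18165 probes, and each gene was read by its tested probe with the highest mean. With stellate cells 2 of the 8 fell, MMP1 and MMP10, and 0 rose, at a limma adjusted p under 0.05. At an unadjusted p under 0.05, 2 were lower and 1, MMP28, was higher, where 20.4% of all genes tested passed, 11.1% higher and 9.25% lower. Over all 10781 genes tested, 4.77% passed in either direction, 2.65% higher and 2.11% lower, and over probes 4.02%. The median log2 change of the 8 genes was 0.12, against 0.02 over all genes tested. MMP1, MMP10 and MMP11, 3 of the 8, had groups with no overlap, as did 26.1% of all genes tested.

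Between 16325 and 19602 probes were detected per array, and the mean deposited signal ran from 273 to 494 intensity units. Replicate 3 with stellate cells stood apart from the other arrays. It had the fewest detected probes, and its probe for ribosomal RNA (RNA28SN5) read 12.85 on the log2 scale, against 5.97 to 8.32 on the other 5 arrays. Over tested probes its log2 values correlated at 0.9628 and 0.9599 with replicates 1 and 2 of its own group. With replicates 1, 2 and 3 alone the correlations were 0.9682, 0.96 and 0.9669. Fits without this array thus drop an array that was as close to the other group as to its own. ACTB and GAPDH, genes often used as loading controls, had log2 changes of -0.08 ± 0.16 and 0.11 ± 0.15 (SE). The cancer layer held the epithelial markers, with 12 of 12 detected. Of these 3, MUC1, CLDN3 and ELF3, were higher at a limma adjusted p under 0.05, as were 2.65% of all genes tested. ELF3 is counted again below among transcription factors. The 12 markers had a summed background-corrected intensity of 38222 to 46393 with stellate cells and 32629 to 37748 alone. Among 32 stellate cell and fibroblast markers, 18 were detected on no array, among them FAP, PDGFRA, PDGFRB, THY1, LUM, COL1A2 and FN1. Of the 8 markers tested 0 rose and 1, COL6A1, fell. TAGLN, a smooth muscle and myofibroblast protein, passed detection on 3 arrays with PS1 and 0 alone (at least 1.44-fold, limma adjusted p = 0.0674), and 1 probe of the proteoglycan DCN on 2 and 0. TAGLN entered the test only through the arrays where it was high, and its other probes were detected on no array. ACTA2 went the other way, at -1.04 ± 0.27 (SE, limma adjusted p = 0.0526), detected on 2 arrays with PS1 and 3 alone. CDH2 was detected on 0 arrays with PS1 and 2 alone. The summed intensity of the list ran from 12561 to 18945 with stellate cells and from 11717 to 14228 alone, nearly all of it from S100A4, which carcinoma cells also express. The other 31 markers summed to 459 to 621 with stellate cells and 584 to 667 alone. Of 11 leukocyte markers on the array 5 were detected on no array, among them CD3D, CD3E and CSF1R. The sum over the whole list was 2191 to 2857 with stellate cells and 1445 to 1829 alone. LYZ and CD68 read highest, with group means of 10.53 and 9.81 with PS1 against 9.62 and 9.50 alone. PTPRC, of the same list, was detected on 0 arrays with PS1 and, by 1 of its probes, on 1 array alone. The protocol names no cells but Capan1 and PS1, so the sum is read as RNA of the listed genes and not as a count of leukocytes. Of the 4 tested, 0 passed the threshold in either direction. ITGAM went the other way, passing detection on 0 arrays with PS1 and 3 alone, as did 1 probe of CD14, on 0 and 2. Of 7 endothelial markers 6 were detected on no array. The part of these shifts in the changes of MMPs and TIMPs was not tested. In layers of many cells, fewer cells that make an RNA and less RNA per cell cannot be told apart.

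MMP1, which cuts fibrillar collagens such as type I, read 6.92, 7.96 and 7.34 on the log2 scale in the order of replicates 1, 2, 3 with stellate cells, and 9.19, 9.60 and 9.02 alone. Every array with stellate cells lay below every array alone. In the deposited, unnormalized table the same probe, ILMN_1726448, had signals of 160, 412 and 208 with stellate cells and 921, 821 and 652 alone, and it was detected on all 6 arrays. Replicates 1 and 3 with stellate cells, which read 160 and 208, were also the arrays with the lowest mean signal, so array brightness enters these signals. The fall was 3.64-fold, a log2 change of -1.86 ± 0.25 (SE, 95% interval -2.42 to -1.31, limma adjusted p = 0.00255). It was the gene with the smallest p of the 8. Leaving out any single array left the change between -2.15 and -1.63, with adjusted p between 0.00012 and 0.0297.

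MMP10, which cuts proteoglycans, laminin and type IV collagen and can activate other proMMPs, read 4.88, 6.38 and 5.75 with stellate cells and 7.44, 8.32 and 7.05 alone. Again every array with stellate cells was the lower. The probe, ILMN_1741847, passed detection on all 3 arrays alone and on 2 of 3 with PS1. In replicate 1 with stellate cells its signal of 92.6 had a detection p of 0.216, and its log2 value of 4.88 lay under the lowest level detected on that array, 5.26. The change was -1.93 ± 0.38 (SE, 95% interval -2.77 to -1.09, limma adjusted p = 0.0176), a 3.82-fold fall. Uncorrected for background, MMP10 had a log2 change of -0.99 (limma adjusted p = 0.0195), and MMP1 one of -1.41. The call was lost without replicate 1 with stellate cells (-1.55, adjusted p = 0.0737) and without replicates 1 or 2 alone (-1.97 and -1.58, adjusted p = 0.0591 and 0.110). It was also lost with array brightness as a covariate, at -1.55 (adjusted p = 0.13), where MMP1 had -1.58 (adjusted p = 0.0302).

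**Figure D1:**
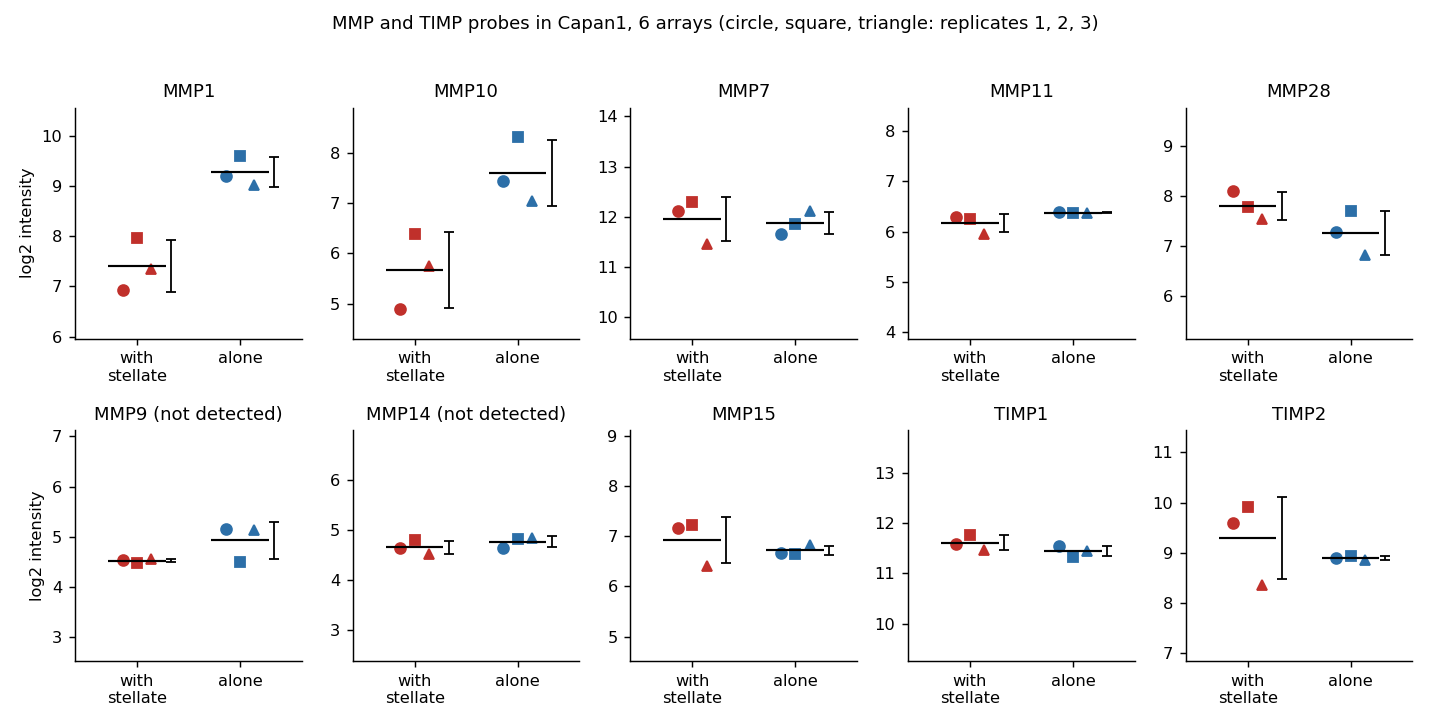
Log2 intensity of the highest-reading probe of each of the 10 genes on the 3 arrays with stellate cells (red) and the 3 alone (blue), with the group mean as a bar and its SD beside it. Each panel spans the same number of log2 units at its own level. MMP1 and MMP10 lay lower on all 3 arrays with stellate cells, and replicate 3 with stellate cells (triangle) was the lowest of the 6 arrays for MMP7, MMP11, MMP15 and TIMP2.

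MMP1 and MMP10 also moved together from array to array. When values were centred over the 6 arrays, the root-mean-square distance between MMP1 and MMP10 was 0.257 log2 units, the smallest of MMP1 to any of 10780 other genes tested. In both, replicate 2 was the highest array of its group and replicate 1 the lowest with stellate cells. The 5 nearest genes that are not MMPs or TIMPs were MANCR, FAM72B, TUBB6, GPAT3 and MKI67, at distances of 0.316 to 0.345. MANCR is a long noncoding RNA, TUBB6 a beta-tubulin, GPAT3 an acyltransferase of glycerolipid synthesis and MKI67 the proliferation marker Ki-67. Their log2 changes ran from -1.95 for GPAT3 to -1.34 for TUBB6. The other 6 genes of the set were far from MMP1, from 0.906 for MMP11, at place 2365, to 1.27 for MMP28, at place 9865. Since values were centred over both groups, the distances include the falls already described, and they carry no test. MMP10, MANCR and MKI67 were not detected on every array with stellate cells, MANCR and MKI67 on 1 of 3, so part of their values lies at background.

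**Figure D2:**
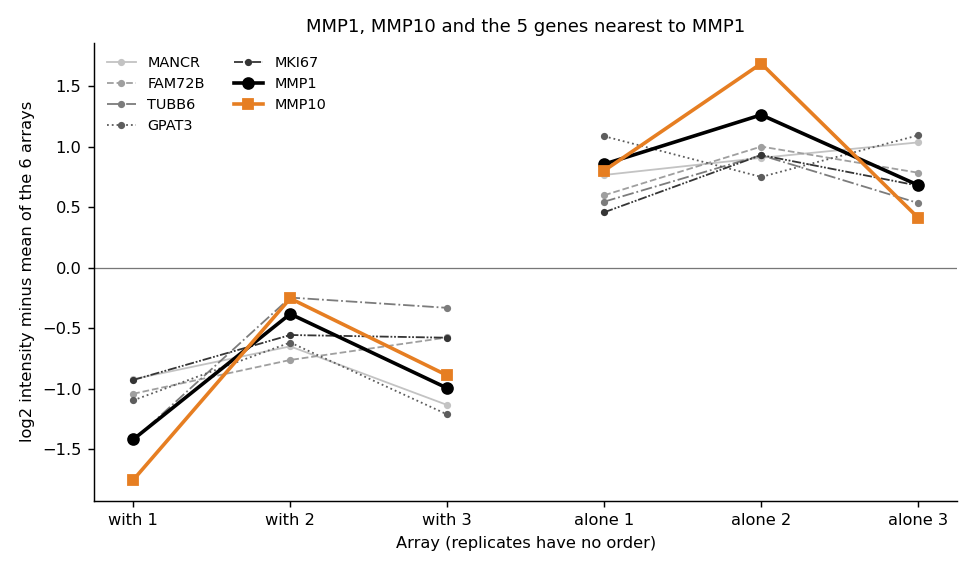
Log2 intensity of MMP1 (black), MMP10 (orange) and the 5 genes nearest to MMP1 (grey), each minus its mean over the 6 arrays, by array. Lines join arrays of a group as a guide only. MMP1 and MMP10 were both highest in replicate 2 of each group and lowest in replicate 1 with stellate cells.

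The chromosome 11 cluster holds 9 protein-coding genes from MMP7 to MMP13, all of them MMPs, in the order MMP7, MMP20, MMP27, MMP8, MMP10, MMP1, MMP3, MMP12 and MMP13. No other protein-coding gene lies between MMP10 and MMP1. Of the 9 genes 3 were tested, and 6 were not. MMP3, stromelysin-1, the gene that follows MMP1 and a close relative of MMP10, was detected on 1 array alone and on 0 with stellate cells, and MMP8, the neutrophil collagenase on the other side of MMP10, on 1 array with stellate cells and on 0 alone. MMP20, enamelysin, was detected on 1 array with stellate cells, and MMP27, MMP12 and MMP13 on no array. Of the 3 genes measured, the adjoining pair fell.

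**Figure D3:**
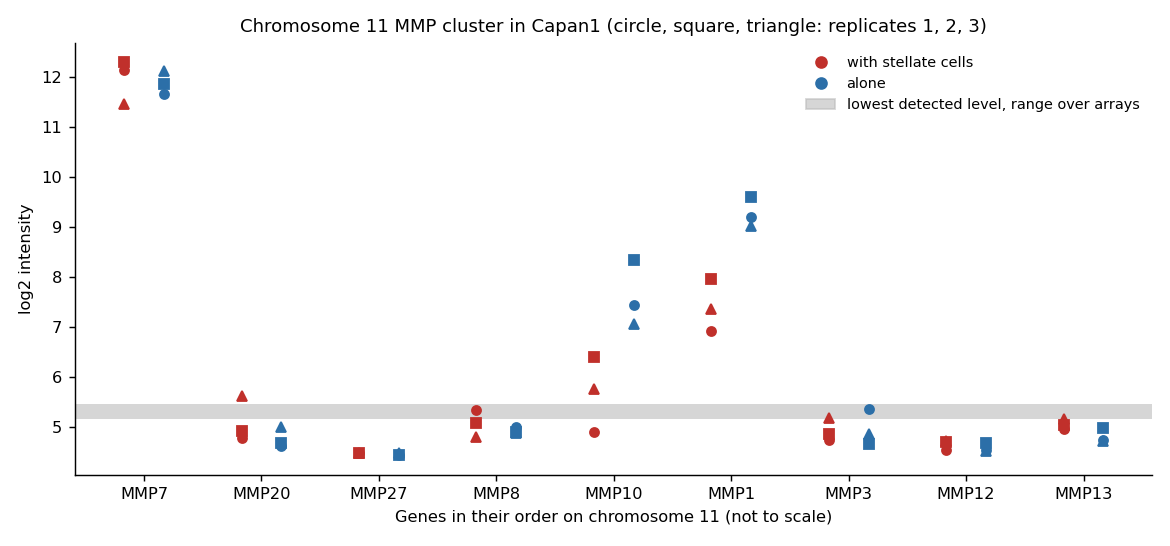
Log2 intensity on each array for the probe with the highest mean of each gene, in the order of the genes on chromosome 11, with stellate cells (red) and alone (blue). The grey band is the range over arrays of the lowest level detected, 5.15 to 5.46. MMP7 and MMP1 lie above the band on all arrays and MMP10 on 5 of 6, MMP20 rises over it on 1 array, and levels of different probes are not comparable.

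MMP7 is a marker of duct-like pancreatic cancer cells and sheds surface proteins such as E-cadherin. Its probe ILMN_2192072 read 12.12, 12.29 and 11.46 with stellate cells and 11.66, 11.85 and 12.11 alone. The arrays with PS1 lay on both sides of those alone. The log2 change was 0.08 ± 0.21 (SE, 95% interval -0.36 to 0.53, limma adjusted p = 0.876), so the interval leaves out a fall of the size seen for MMP1. A second probe, ILMN_1685403, gave 0.08 ± 0.21. The sign turned to -0.21 with median scaling, a setting that moved the median of all genes to -0.20, and it also turned without replicates 1 or 2 with stellate cells or replicate 1 alone.

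MMP11, stromelysin-3, which is made mostly by fibroblasts in many carcinomas, read 6.30, 6.26 and 5.96 with stellate cells and 6.38, 6.37 and 6.38 alone. The groups did not overlap, but the gap between them was narrow. The change was -0.21 ± 0.22 (SE, 95% interval -0.67 to 0.26, limma adjusted p = 0.672). MMP28, epilysin, a secreted protease of epithelia, read 8.10, 7.78 and 7.55 with stellate cells and 7.28, 7.69 and 6.82 alone by probe ILMN_2399016. The ranges overlapped through replicate 2 alone. The change was 0.54 ± 0.25 (SE, 95% interval 0.01 to 1.08, adjusted p = 0.263), and a second probe gave 0.44 ± 0.25. With array weights MMP28 passed, at 0.83 (limma adjusted p = 0.00808), in a fit where 21.3% of all genes tested passed, against 4.77% without weights. The MMP28 probe ILMN_1791508 was detected on 1 array with stellate cells and on 0 alone and was not tested.

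Of the membrane-anchored members, MMP15, a membrane-type MMP, read 7.16, 7.22 and 6.40 with stellate cells and 6.67, 6.65 and 6.82 alone. Replicates 1 and 2 with stellate cells were above all arrays alone and replicate 3 below them. The change was 0.21 ± 0.25 (SE, 95% interval -0.33 to 0.75, limma adjusted p = 0.713). MMP14, the membrane-type MMP that activates proMMP2 and cuts fibrillar collagen, was not detected on any array. Its deposited signals lay between 86.0 and 127, with detection p from 0.262 to 0.752. MMP2 itself, the gelatinase that MMP14 activates, was also detected on no array. A probe at the level of the negative controls sets an upper limit on its signal and does not show that the RNA is absent.

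MMP9, which cuts denatured collagen and type IV collagen, was likewise not detected on any array. Its probe had deposited signals of 82.9, 107 and 105 with stellate cells and 149, 102 and 136 alone. The detection p of replicates 1 and 3 alone came closest to the threshold, at 0.0558 and 0.0779. When dim probes were kept in the fit, the difference was -0.40 ± 0.16 (SE, limma adjusted p = 0.364).

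TIMP1, a broad inhibitor of soluble MMPs, differed little between arrays, at 11.59, 11.76 and 11.46 with stellate cells and 11.54, 11.33 and 11.46 alone. The groups overlapped. Its change was 0.16 ± 0.14 (SE, 95% interval -0.14 to 0.47, limma adjusted p = 0.599), and the sign turned with median scaling, to -0.11. The interval holds changes in either direction but none as large as those of MMP1 and MMP10.

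TIMP2, the inhibitor that forms a complex with MMP14, depended on replicate 3 with stellate cells. It read 9.60, 9.92 and 8.36 with stellate cells and 8.91, 8.94 and 8.86 alone by probe ILMN_1721876. Replicates 1 and 2 with stellate cells were above all arrays alone, and replicate 3, the array that stood apart by its ribosomal RNA, was below them. With all arrays the change was 0.39 ± 0.31 (SE, 95% interval -0.28 to 1.07, limma adjusted p = 0.557). Without that array it was 0.85 ± 0.15 (SE, limma adjusted p = 0.0013), a 1.80-fold rise, and TIMP2 joined MMP1 and MMP10 past the threshold. Over all genes tested, 17.5% then passed, made up of 9.54% higher and 8% lower. With array weights TIMP2 passed, at 0.72 (adjusted p = 0.00965), in the fit where 21.3% of all genes tested did. The weights were estimated from these same arrays, so this fit is not separate support. A second TIMP2 probe, ILMN_1749078, read between 5.10 and 5.27 with stellate cells and between 4.70 and 4.75 alone but was detected on no array, so it was not tested.

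**Figure D4:**
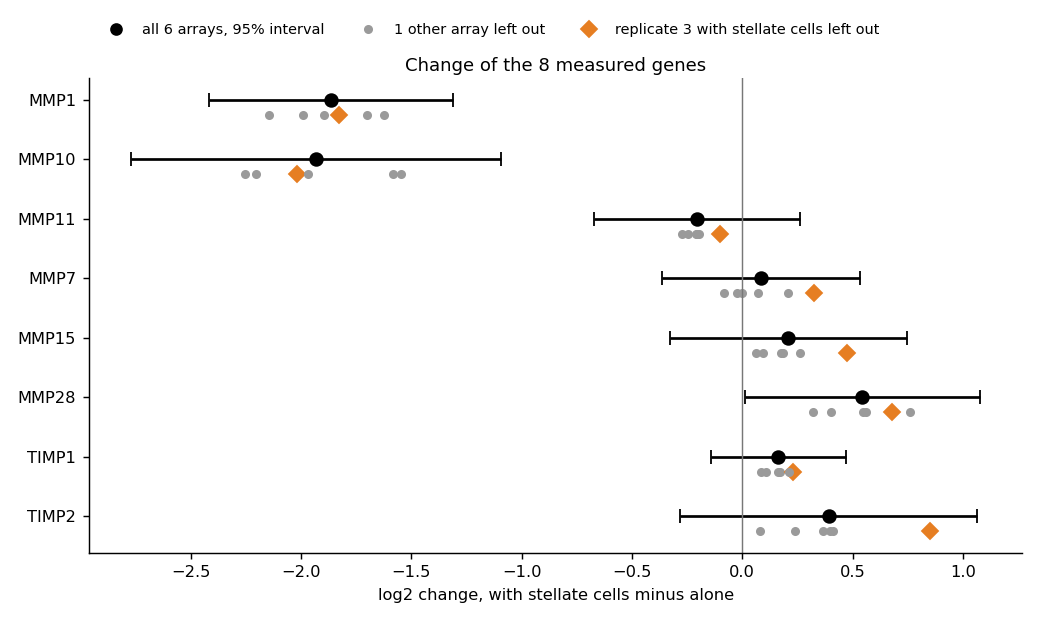
Log2 change with stellate cells for the 8 tested genes, with the 95% interval of the fit (black) and, under it, the change when each array is left out in turn, replicate 3 with stellate cells as an orange diamond. MMP1 and MMP10 stay below 0 in all 6 of these fits, while MMP7, MMP15 and TIMP2 move up by the most without replicate 3 with stellate cells.

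Few genes of the family beyond these 10 could be tested. Of 18 other MMP and TIMP genes, read by 27 probes, 9 were detected on no array, 8 on 1 or 2 arrays, and 1, TIMP4, was tested. TIMP4, an inhibitor best known from heart and other muscle, read 6.36, 6.29 and 6.24 with stellate cells and 6.90, 6.19 and 6.90 alone. Replicate 2 alone lay below the arrays with stellate cells, and the change was -0.36 ± 0.24 (SE, limma adjusted p = 0.476). TIMP3, which binds to the matrix and is made by many stromal cells, was detected on no array. Of 30 ADAM and ADAMTS genes, related metalloproteases that shed surface proteins or cut proteoglycans, 6 were tested, 0 passed the limma test and 1, ADAM8, was lower at an unadjusted p (-0.48 ± 0.21, SE, limma adjusted p = 0.252).

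Among activators, partners and inhibitors of MMPs, 24 of 32 genes were tested, and 3 rose and 0 fell, against 2.65% and 2.11% of all genes. At an unadjusted limma p 4 were higher and 1 lower, 5 of 24, close to the 20.4% of all genes. PLAT, tissue plasminogen activator, which makes plasmin, an activator of proMMPs, read 13.63, 13.41 and 12.49 with stellate cells and 11.64, 12.40 and 11.47 alone. The groups did not overlap, and replicate 3 with stellate cells was the lowest of its group. The rise was 2.53-fold (log2 change 1.34 ± 0.29, SE, limma adjusted p = 0.0240). TMPRSS2 and TMPRSS4, serine proteases of the epithelial surface, rose 1.96-fold and 1.93-fold (limma adjusted p = 0.0261 and 0.0464). Without replicate 3 with stellate cells 7 rose, in a fit where 9.54% of all genes did. Leaving out any other array left 0 limma calls, or 1, PLAT, in the case of replicate 2 alone. The other arm of plasminogen activation, PLAU, urokinase, had a value of -0.40 ± 0.22 (SE, adjusted p = 0.360). RECK, a membrane-anchored inhibitor of MMPs, was detected on no array, and BSG, an inducer of MMPs in fibroblasts, had a value of -0.16 ± 0.17 (SE).

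Of 29 transcription factors known to act on MMP promoters 27 were tested, 2 rose and 2 fell, against 2.65% and 2.11% of all genes, with a median log2 change of 0.07. FOSL1, an AP-1 subunit also called FRA1, read 6.57, 6.73 and 7.29 with stellate cells and 7.97, 7.93 and 8.09 alone. All arrays with stellate cells were the lower, and the fall was 2.20-fold (log2 change -1.14 ± 0.22, SE, limma adjusted p = 0.0150). RELB, a subunit of NF-kappa-B, fell 2.56-fold (limma adjusted p = 0.0183). FOSB, another AP-1 subunit, was detected on all 3 arrays with stellate cells and on 0 alone, and was at least 1.67-fold higher. It entered the test only through the arrays where it was high, so its call adds no support to the count of those that rose. ELF3, an ETS factor of epithelia, rose 2.10-fold (limma adjusted p = 0.00485), a call lost with median scaling (log2 change 0.81, adjusted p = 0.116) and with array brightness as a covariate (1.01, adjusted p = 0.0507). FOS and JUN, the founding AP-1 subunits, had values of 0.51 ± 0.23 and 0.68 ± 0.26 (SE, limma adjusted p = 0.252 and 0.191), on the other side of 0 from FOSL1. The FOSL1 call was kept without replicate 3 with stellate cells (-1.36) and lost without each of the other arrays, where its change was between -1.17 and -0.99 and its adjusted p between 0.0524 and 0.103. The FOSB call was lost in the same way, and that of RELB without replicates 1 or 3 alone.

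**Figure D5:**
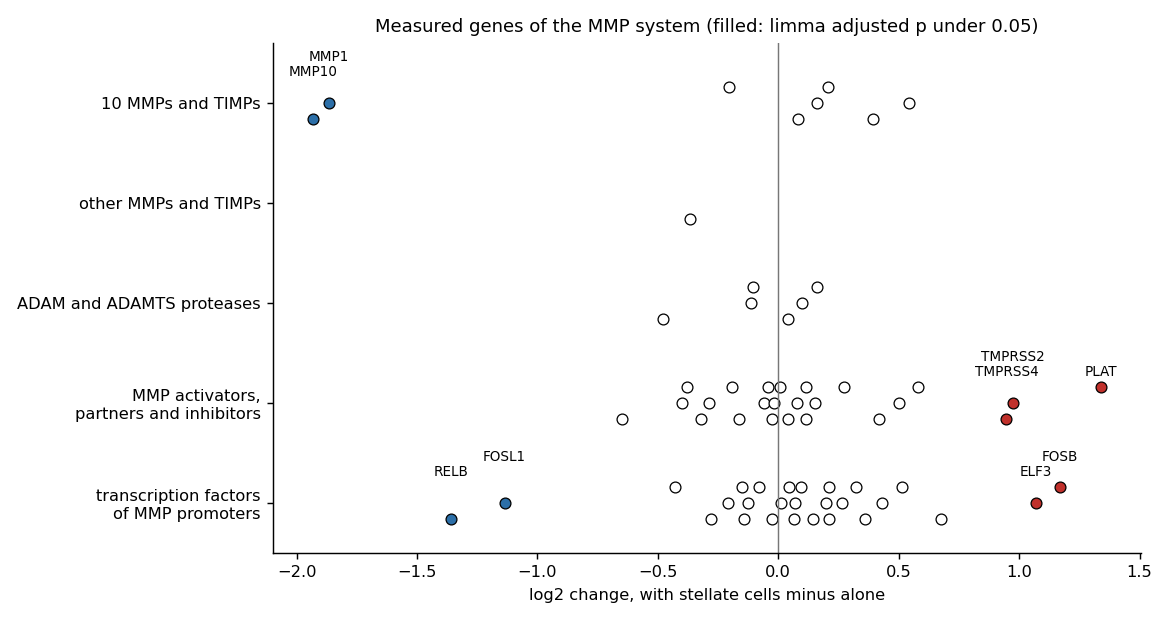
Log2 change with stellate cells of each tested gene in the MMP and TIMP set and 4 further lists, 1 point per gene, filled blue for those that fell and red for those that rose at a limma adjusted p under 0.05. MMP1 and MMP10 stand at -1.86 and -1.93, apart from the other 6 genes of their set, which lie between -0.21 and 0.54, and FOSB is drawn at its fitted value rather than its bound.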

How the data were processed

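Each array measured biotinylated cRNA from 1 laser-captured sample. Per the file headers, the deposited table holds 1 intensity per probe and array, not normalized, beside a detection p-value against that array's negative controls. The submitters' processing notes name BeadStudio and GenomeStudio 2011.1; other steps are not stated there. A second deposited intensity table, whose columns share 1 distribution, served as an alternative.

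Here, normexp background correction (limma 3.58.1, R 4.3.3) took the controls' levels from the detection p-values and added an offset of 16. Quantile normalization and log2 followed. The 18165 of 47228 probes with detection p under 0.05 on 3 or more of the 6 arrays entered lmFit and eBayes with an intensity trend. Tests were two-sided, and Benjamini-Hochberg adjustment covered all of these probes. With 3 arrays a group, exact permutation could not go below 0.1, so it was left out. A fold against a group in which no array detected the probe is a bound, set on each array at the lowest detected level, or at the probe's own level where that is higher. The fit was tested on simulated data. Probe names came from the platform annotation and RefSeq gene IDs, and figures from matplotlib 3.10.9.

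The members, lists and tests were chosen with earlier results of these data known. Genes were named by a rule: all members and their probes, tested genes of the other MMP and TIMP list, up to 4 genes past the threshold from each further list, the 5 genes nearest to the member with the smallest p, ACTB, GAPDH and RNA28SN5. MMP2, MMP3, MMP8, MMP12, MMP13, MMP20, MMP27, TIMP3, ADAM8, PLAU, RECK, BSG, FOS, JUN and the cell type markers were named after their values were seen. Whether replicates were separate cultures is not stated, so the p-values measure how these samples vary, and that variation may be technical. The number of arrays limits the precision. Alternatives covered background correction, offsets of 1 and 50, normalization, the filter on dim probes, the variance model, array weights, array brightness as a covariate, the deposited normalized table, the replicate block, other probes and leaving out each array.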

Additional observations from a re-analysis of the deposited data

How the results depend on the processing

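Over the 19 alternative fits of the whole table MMP1 kept its direction and its call, with log2 changes from -2.15 to -1.41 and limma adjusted p from 1.04e-05 to 0.0302. MMP10 kept its direction in all 18 that hold its probe and its call in 14. The count of members past the threshold, 2, became 1 when probes had to be detected on all 6 arrays, 1 with array brightness as a covariate and 4 with array weights, and ranged over 1 to 3 when single arrays were dropped. The 730 probes past the threshold became 392 without the intensity trend, 3357 with array weights and 163 with array brightness, and ran from 153 to 2744 without 1 array. Of all genes tested 4.77% passed in the reported fit, 21.3% with array weights and 1.11% with array brightness. Median scaling split the probes past the threshold into 83 higher and 437 lower, against 366 and 364. The 3 activators, partners and inhibitors became 1 with median scaling, 0 without the trend, 7 with array weights and 0 with array brightness, and ran from 0 to 7 without 1 array. The 4 transcription factors became 0 with array brightness, 6 with array weights and 3 with median scaling or when detection on all 6 arrays was required, and ran from 1 to 5 without 1 array. The other MMP and TIMP list and the ADAM and ADAMTS list stayed at 0 throughout. With median scaling the change was -0.21 for MMP7, -0.11 for TIMP1 and -0.12 for GAPDH, all turned in sign. Without 1 array MMP7 ran from -0.083 to 0.33 and ACTB from -0.19 to 0.079, and ACTB was 0.071 with array weights. The cause of these moves was not tested.

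Arrays share the numbers 1 to 3 across groups, but same-numbered arrays did not deviate together (correlations of -0.0239, -0.0314 and 0.0799 over probes), and not every array correlated best with its own number. The fit with the replicate number as a block gave 783 probes and 2 members past the threshold. Signal over background limits MMP9 and MMP14, which were detected on no array, and the wider family, of which 9 of 18 genes were detected on no array and 8 on 1 or 2.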

Other observations

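Some further genes of the MMP system passed when replicate 3 with stellate cells was left out and with array weights, and they are named here after their values were seen. Both fits use the same arrays, so passing in both is not separate support. Without that replicate, among activators and partners these were CTSB and CTSL, lysosomal cathepsins that can activate proMMPs, with log2 changes of 0.89 and 0.50, LRP1, an endocytic receptor that clears MMPs, at 0.99, and PCSK7, a proprotein convertase, at 0.57. Among transcription factors it was STAT3, at 0.67. Of all genes tested 17.5% passed without replicate 3 with stellate cells, 9.54% of them all being higher, and 21.3% passed with array weights. LRP1 passed detection on 2 arrays with PS1 and 1 alone. In replicates 2 and 3 alone it read 4.75 and 4.83, under the lowest levels detected there, 5.30 and 5.26. Part of its values therefore lies at background. ETS1, an ETS factor of MMP promoters, had probes that disagreed: ILMN_1687538, with the higher mean, had a log2 change of 0.14 ± 0.25 (SE, limma adjusted p = 0.817), while ILMN_2122103 fell by 0.82 ± 0.19 on the log2 scale (limma adjusted p = 0.0330). The groups did not overlap for the second probe.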
